A study of Mus musculus with 49 samples.

Results

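Skin inflamed with imiquimod was compared between mice given an antibody against the mouse protein IL-12p40 (7 libraries, called anti-IL-12p40) and mice injected with PBS (6 libraries). These 13 RNA-seq libraries, chosen by the treatment in their labels, are part of a series of 49, and all 15345 genes that passed a filter on low counts were tested. Imiquimod is a Toll-like receptor agonist that gives psoriasis-like inflammation when painted on mouse skin. Every group carries the labels "DITRA model" for disease state and 75% C57BL/6NTac with 25% 129S6/SvEvTac for strain, and DITRA is the human deficiency of the interleukin-36 receptor antagonist. The altered alleles, the animals' ages and the antibody doses are not given in the sources used here. For context, 7 skin libraries of imiquimod with an antibody to human IL-36R (anti-IL-36R) and 3 of water with PBS were used, and, from colon injured with dextran sulfate sodium (DSS), 7 libraries with anti-IL-12p40 and 6 with PBS. The labels do not say whether each library is 1 animal, so the p-values measure the spread between these samples. The keratins of skin were abundant in each of the 13 libraries, with Krt14 at no less than 7538 CPM (counts scaled to the library total).

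IL-12p40, encoded by Il12b, pairs with the product of Il12a to form IL-12 and with that of Il23a to form IL-23. IL-23 sustains T cells that make IL-17A, IL-17F and IL-22, which in skin include many gamma-delta T cells. Keratinocytes answer these cytokines with neutrophil chemokines, antimicrobial proteins and small proline-rich proteins, and with less of the proteins of normal cornification.

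With anti-IL-12p40, 807 genes rose and 531 fell against PBS. The words rose, fell and passed are kept for genes with an adjusted p under 0.05 in edgeR's quasi-likelihood test. The 1338 genes that passed are 8.72% of those tested, 5.26% higher and 3.46% lower, and these shares stand beside every list below. The lists and their members were chosen with earlier results of these data known. A list share above these values is therefore a description and no test of the list. Among the falls were the cytokine genes Il17f, Il17a and Il22, 3 of 8 tested neutrophil chemokine and growth factor genes, 7 of 21 antimicrobial protein genes and 23 of 36 small proline-rich and stress keratinocyte genes. Among the rises were 16 of 24 sebaceous and fatty acid enzyme genes, 9 of 39 cornification genes and 6 of 15 regulatory T cell genes. Among all tested genes the median log2 fold change was 0.014, and 409 of the genes that passed changed by at least 1 on the log2 scale. In 579 genes, or 3.77%, the libraries of the 2 groups did not overlap. The count of genes that passed was 737 without anti-IL-12p40 replicate 1, 752 without its replicate 2, 847 without PBS replicate 2 and 871 without PBS replicate 5. Without anti-IL-12p40 replicate 7 it was 1799, and falls then outnumbered rises, with 882 higher and 917 lower. It was 429 (189 higher, 240 lower) when the anti-IL-12p40 group was set against PBS replicates 1 to 3 alone and 193 against PBS replicates 4 to 6 alone.

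**Figure D1:**
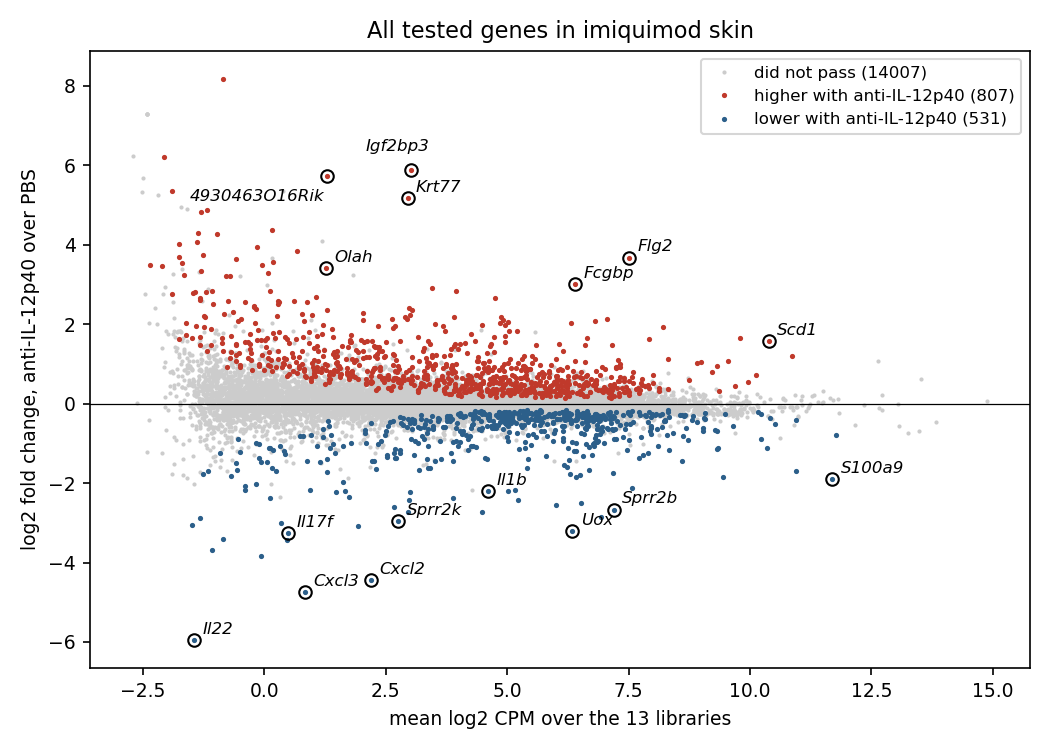
Log2 fold change of anti-IL-12p40 over PBS (y axis) against mean log2 CPM over the 13 imiquimod skin libraries (x axis), 1 point for each of 15345 genes. Red points are the 807 genes that rose and blue points the 531 that fell, circled genes are named, and Igf2bp3 and Flg2 stand above 3 while Cxcl2, Cxcl3 and Il22 stand below -4.

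The neutrophil chemokine and Sprr2 genes, which hold some of the largest falls, are shown first with the 250 bases before their start, from RefSeq on GRCm38.p6. Capitals in the chemokine windows mark GGGA and TTTCC with 1 base of any kind between them, a motif of the kind bound by NF-kB, searched on both strands. It was in the windows of Cxcl1, Cxcl2 and Cxcl3, the 3 of the 5 genes looked up (with Cxcl5 and Csf3) that the table holds, against 0.356% of all 32851 windows of this length in the table. Counting the base before the gene's start as -1, its first base lies at -71 in Cxcl1, -97 in Cxcl2 and -73 in Cxcl3.
Cxcl1, chr5:90890995-90891244, plus strand: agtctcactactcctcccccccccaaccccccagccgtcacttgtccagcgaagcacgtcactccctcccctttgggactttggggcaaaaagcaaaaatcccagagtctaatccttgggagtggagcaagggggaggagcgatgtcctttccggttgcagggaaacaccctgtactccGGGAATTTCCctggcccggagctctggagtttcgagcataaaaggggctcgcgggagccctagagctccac
Cxcl2, chr5:90903649-90903898, plus strand: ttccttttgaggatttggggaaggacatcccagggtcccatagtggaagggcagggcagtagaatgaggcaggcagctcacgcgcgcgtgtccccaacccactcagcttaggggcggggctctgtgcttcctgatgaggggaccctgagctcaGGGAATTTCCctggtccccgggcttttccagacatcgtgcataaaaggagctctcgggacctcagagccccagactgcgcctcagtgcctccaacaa
Cxcl3, chr5:90785851-90786100, plus strand: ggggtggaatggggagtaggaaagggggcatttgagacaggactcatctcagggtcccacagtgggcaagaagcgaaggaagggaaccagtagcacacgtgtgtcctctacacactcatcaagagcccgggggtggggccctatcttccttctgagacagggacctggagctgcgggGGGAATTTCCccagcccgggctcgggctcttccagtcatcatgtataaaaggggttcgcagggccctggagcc

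Capitals in the Sprr2 windows mark TGANTCA, a motif of the kind bound by AP-1, also searched on both strands. It was in 7 of the 8 windows held for the Sprr2 genes looked up (none is held for Sprr2g), against 6.75% of the 32851 windows. Each of the 7 has a match starting between -198 and -193, and the genes are related neighbours, so these are not 7 independent matches. Sprr2k held it at -196 and -182, Sprr2b at -195, and Sprr2e and Sprr2i at -193, while Sprr2a1, which did not pass (log2 fold change -0.31 ± 0.33), held none in its window. The Cxcl windows too belong to related neighbours, and Cxcl1 held its motif and did not pass. The motif search describes letters in these windows, no binding was measured, and a part of either motif in the falls was not tested.
Sprr2b, chr3:92316455-92316704, plus strand: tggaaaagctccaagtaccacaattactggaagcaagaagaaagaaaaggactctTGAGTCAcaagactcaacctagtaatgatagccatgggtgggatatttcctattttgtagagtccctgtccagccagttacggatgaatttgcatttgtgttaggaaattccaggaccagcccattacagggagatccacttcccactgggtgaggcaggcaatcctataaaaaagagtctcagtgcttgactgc
Sprr2e, chr3:92351893-92352142, plus strand: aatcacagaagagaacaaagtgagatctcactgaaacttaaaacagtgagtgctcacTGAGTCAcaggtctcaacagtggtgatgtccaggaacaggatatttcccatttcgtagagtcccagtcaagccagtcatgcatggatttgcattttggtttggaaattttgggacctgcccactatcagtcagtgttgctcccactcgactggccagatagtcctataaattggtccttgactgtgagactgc
Sprr2i, chr3:92407741-92407990, plus strand: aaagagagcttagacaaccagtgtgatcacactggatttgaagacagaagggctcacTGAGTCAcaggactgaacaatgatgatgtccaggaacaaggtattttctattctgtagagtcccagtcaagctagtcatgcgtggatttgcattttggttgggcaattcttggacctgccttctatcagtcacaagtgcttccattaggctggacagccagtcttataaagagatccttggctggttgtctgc
Sprr2k, chr3:92432332-92432581, plus strand: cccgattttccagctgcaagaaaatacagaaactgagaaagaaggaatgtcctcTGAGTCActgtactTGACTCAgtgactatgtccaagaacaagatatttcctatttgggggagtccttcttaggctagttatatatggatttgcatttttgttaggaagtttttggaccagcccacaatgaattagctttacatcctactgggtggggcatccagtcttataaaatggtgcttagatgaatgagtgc

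Transcripts of the antibody's targets themselves did not pass. Group values are given as the lowest, median and highest CPM over libraries, and coordinates are those of GRCm38.p6 (mm10). Il12b (Entrez gene ID 16160, chr11:44400063-44414677), which encodes IL-12p40, stood at 0.12, 0.737 and 1.96 CPM with anti-IL-12p40, against 0.104, 0.256 and 1.36 CPM with PBS (log2 fold change 1.06 ± 0.57, adjusted p = 0.254). Il23a (Entrez gene ID 83430, chr10:128296140-128298084), the subunit particular to IL-23, stood at 0.538, 1.2 and 1.95 CPM with anti-IL-12p40, against 0.731, 1.94 and 5.97 CPM with PBS (-0.95 ± 0.51, adjusted p = 0.251). Both genes overlapped widely between the groups. Il12a, the subunit particular to IL-12, was below the filter with 13 counts in all over the anti-IL-12p40 libraries and 18 over the PBS libraries. Of 11 tested genes of IL-12, IL-23 and their receptors and signalling proteins, 4 rose and 0 fell, and 7 did not pass (median log2 fold change 0.23). Stat4, the transcription factor downstream of IL-12, rose to 1.15, 1.91 and 2.53 CPM with anti-IL-12p40, against 0.475, 0.941 and 1.35 CPM with PBS (0.94 ± 0.23, adjusted p = 0.0140). Il12rb2, the signalling chain of the IL-12 receptor, rose to 1.0, 2.45 and 4.56 CPM with anti-IL-12p40, against 0.208, 0.784 and 1.28 CPM with PBS (1.62 ± 0.48, adjusted p = 0.0398). The call for Il12rb2 was lost without any 1 of 8 libraries, with adjusted p of 0.0550 to 0.0984. Leaving out single libraries also reduced the 4 rises of the list to 1 without PBS replicate 4 or 5 or anti-IL-12p40 replicate 1, 2 or 3, and to 2 without PBS replicate 1, 2 or 3 or anti-IL-12p40 replicate 6. Il23r, the IL-23 receptor chain, had a log2 fold change of 0.21 ± 0.32, adjusted p = 0.731.

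IL-17F, IL-17A and IL-22 transcripts fell, and no anti-IL-12p40 library reached the lowest PBS library for any of them. Il17f (Entrez gene ID 257630, chr1:20777146-20785274) stood at 0.283, 0.418 and 1.02 CPM with anti-IL-12p40, against 2.03, 3.67 and 8.41 CPM with PBS and 0.408 ± 0.0768 CPM in water controls (mean ± SD, n = 3), a log2 fold change of -3.25 ± 0.46, adjusted p = 0.000650. Il17a, its close relative, stood at 0, 0.0707 and 0.307 CPM with anti-IL-12p40, against 0.363, 0.621 and 2.37 CPM with PBS (-2.89 ± 0.66, adjusted p = 0.00952). The highest anti-IL-12p40 library for Il17f was replicate 3, and 1 or more anti-IL-12p40 libraries had no Il17a count. Il22, the cytokine that drives keratinocyte growth and antimicrobial genes, had 2 counts in all over the 7 anti-IL-12p40 libraries, against 139 over the 6 PBS libraries. Scaled to depth this is 87.8-fold lower with the antibody (95% exact interval of the ratio 23.8 to 732, counting error only; adjusted p = 0.00434). The 4 other tested members of the list, among them Il17c and Il17d, did not pass, and Il21 and Il25 were below the filter. Ifng, which encodes interferon-gamma, had 7 counts over the anti-IL-12p40 and 7 over the PBS libraries. In bulk tissue, fewer cells of a type and less RNA per cell cannot be told apart. Against PBS replicates 4 to 6 alone Il17f and Il22 still passed, and Il17a had a log2 fold change of -2.51 and did not (adjusted p = 0.0830). Against PBS replicates 1 to 3 alone Il17a was below the filter and was not tested.

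Of 16 tested genes typical of IL-17-producing T cells other than the cytokines, 4 rose, 0 fell and 12 did not pass. Their log2 fold changes ran from -0.67 to 1.14 (median 0.19). The summed level of the list was 991, 1069 and 1391 CPM with anti-IL-12p40, against 970, 1149 and 1486 CPM with PBS. The 4 that rose were Zbtb16, which encodes the transcription factor PLZF, Rora and Ahr, further transcription factors found in these cells, and the IL-7 receptor gene Il7r. None of the 4 is restricted to these cells, and which cells carried the rises was not tested. Zbtb16 stood at 10.4, 14.9 and 19 CPM with anti-IL-12p40, against 3.6, 7.08 and 9.3 CPM with PBS (1.14 ± 0.27, adjusted p = 0.0116), and the groups did not overlap. The log2 fold change was 0.80 ± 0.19 for Rora, 0.56 ± 0.14 for Ahr and 0.79 ± 0.21 for Il7r, whose call was lost without PBS replicate 2 (adjusted p = 0.0511).

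Of 8 tested neutrophil chemokine and growth factor genes, 3 fell and 0 rose. Cxcl2 (Entrez gene ID 20310, chr5:90903899-90905938), a ligand of CXCR2, stood at 0.201, 0.919 and 4.84 CPM with anti-IL-12p40, against 8.32, 24.4 and 103 CPM with PBS, and at 0.313 ± 0.485 CPM in water controls (mean ± SD, n = 3). Cxcl3 (Entrez gene ID 330122, chr5:90786101-90788093), another such ligand, stood at 0.0511, 0.424 and 0.895 CPM with anti-IL-12p40, against 3.28, 7.69 and 35.2 CPM with PBS. All 7 anti-IL-12p40 libraries lay below all 6 PBS libraries for both genes, with log2 fold changes of -4.45 ± 0.92, adjusted p = 0.00601 for Cxcl2 and -4.75 ± 0.85, adjusted p = 0.00301 for Cxcl3. Csf3, which encodes the neutrophil growth factor G-CSF, stood at 0, 0.105 and 0.299 CPM with anti-IL-12p40, against 0.426, 1.27 and 3.22 CPM with PBS (-3.41 ± 0.80, adjusted p = 0.0116). Again the groups did not overlap. Cxcl1, whose promoter window is shown above, did not pass, with a median of 3.35 CPM with anti-IL-12p40 and 8.02 CPM with PBS (-1.09 ± 0.60, adjusted p = 0.264). Cxcl5 did not pass either (-0.16 ± 1.10, adjusted p = 0.948). Against PBS replicates 1 to 3 alone 1 of the 8 fell, and Cxcl2 had a log2 fold change of -3.62 and did not pass (adjusted p = 0.0596). Counts of Cxcl2 and Cxcl3 were not whole in 10 of the 13 libraries, which means that some reads were shared with similar genes.

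**Figure D2:**
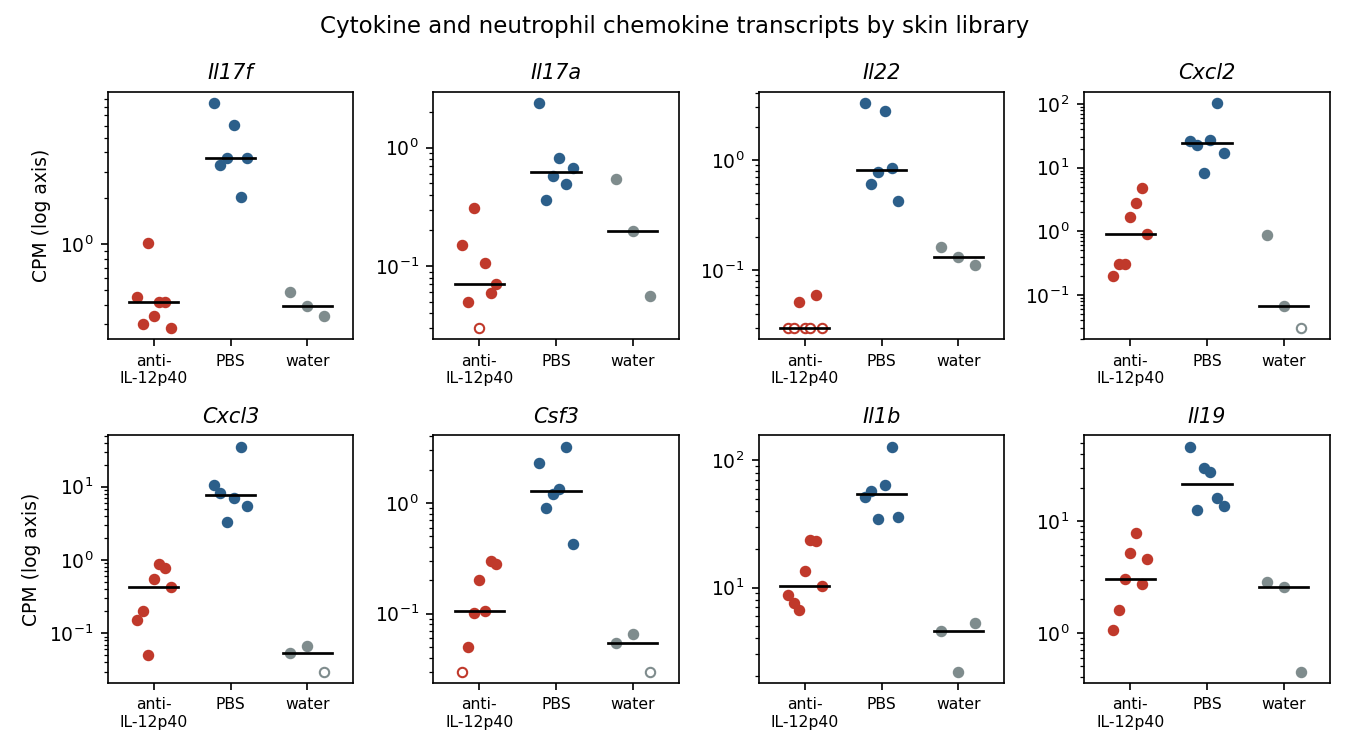
CPM per library on a log axis for 8 cytokine and chemokine genes in skin with imiquimod and anti-IL-12p40 (7 libraries), imiquimod and PBS (6) and water and PBS (3). Points are libraries, bars are medians, and open points are libraries below 0.03 CPM drawn at that value. For each of the 8 genes, all anti-IL-12p40 libraries lie below all PBS libraries.

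The IL-1 family gave 3 falls and 1 rise among 12 tested, the IL-20 family with its receptors 2 falls and 2 rises among 8, and IL-6 family and general inflammatory cytokines 2 falls and 1 rise among 12. Il1b, the secreted IL-1 of myeloid cells, stood at 6.65, 10.2 and 23.8 CPM with anti-IL-12p40, against 34.4, 54.3 and 128 CPM with PBS (-2.21 ± 0.50, adjusted p = 0.00934), without overlap. Il19, an IL-20 family cytokine of inflamed keratinocytes, stood at 1.05, 3.07 and 7.79 CPM with anti-IL-12p40, against 12.7, 21.8 and 46.6 CPM with PBS (-2.72 ± 0.64, adjusted p = 0.0124). It too did not overlap, and its relative Il24 fell by 2.18 on the log2 scale (adjusted p = 0.0422), a call lost without any 1 of 7 libraries (adjusted p of 0.0586 to 0.0996). Of the 2 rises of that family, Il20ra and Il20rb, the call of Il20rb (0.49 ± 0.15, adjusted p = 0.0474) was lost without any 1 of 11 libraries and with DESeq2 size factors, and 0 rose without PBS replicate 3 or 5 or anti-IL-12p40 replicate 3. Osm, which encodes oncostatin M, stood at 0.60, 1.63 and 2.51 CPM with anti-IL-12p40, against 2.81, 3.71 and 10.2 CPM with PBS (-1.72 ± 0.45, adjusted p = 0.0223). The Osm groups did not overlap, but the call was lost without PBS replicate 5 or anti-IL-12p40 replicate 1 or 2 (adjusted p of 0.0515 to 0.0686). The other fall of its list, the receptor gene Osmr, was lost without any 1 of 8 libraries. Il18, an IL-1 family cytokine stored by keratinocytes, went the other way at 45.9, 56.7 and 67.1 CPM with anti-IL-12p40, against 21.7, 25.7 and 51.1 CPM with PBS (0.95 ± 0.20, adjusted p = 0.00646). Il33, a nuclear alarmin, stood at 65.6, 137 and 171 CPM with anti-IL-12p40, against 199, 286 and 366 CPM with PBS (-1.17 ± 0.37, adjusted p = 0.0483). Its groups did not overlap, yet the call was lost without any 1 of 11 libraries, with adjusted p of 0.0536 to 0.101. Il6 (-0.90 ± 0.63, adjusted p = 0.388) and Tnf (-0.31 ± 0.35, adjusted p = 0.617) did not pass. Of the 5 tested IL-36 family genes 0 passed by edgeR, 2 had an unadjusted p under 0.05, and DESeq2 passed 0 and limma-voom 2. Over all 15345 tested genes 3871 had such an unadjusted p, and DESeq2 passed 1845 and limma-voom 2677. The receptor gene Il1rl2 stood at 20.1, 20.9 and 24.5 CPM with anti-IL-12p40, against 18.5, 21.1 and 29.1 CPM with PBS (-0.008 ± 0.092, adjusted p = 0.970). Il1f5, the gene of the receptor antagonist in the mouse reference, stood at 454, 522 and 688 CPM with anti-IL-12p40, against 291, 424 and 923 CPM with PBS (0.19 ± 0.21, adjusted p = 0.615), and Il1f9, an agonist, had 0.58 ± 0.24, adjusted p = 0.136. Il1f6 had no count in any skin library, and Il1f8, with 62 counts over the anti-IL-12p40 and 24 over the PBS libraries, was below the filter. The altered alleles of these mice are not given, so counts on the mouse reference need not measure the IL-36 family genes that they carry.

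Of 22 tested keratinocyte genes known to answer IL-17, 10 fell, 1 rose and 11 did not pass (median log2 fold change -1.05). S100a9, a chain of the metal-binding protein calprotectin, stood at 593, 1956 and 3269 CPM with anti-IL-12p40, against 5204, 6767 and 11157 CPM with PBS (-1.91 ± 0.40, adjusted p = 0.00602). Its partner S100a8 stood at 375, 1245 and 1939 CPM with anti-IL-12p40, against 2693, 3771 and 5458 CPM with PBS (-1.68 ± 0.38, adjusted p = 0.00934). The anti-IL-12p40 group lay wholly below the PBS group for both, and both genes are also abundant in neutrophils. The 1 member that rose was Ccl20, the ligand of CCR6, at 7.71, 21.3 and 30.6 CPM with anti-IL-12p40, against 2.38, 5.87 and 14.9 CPM with PBS (1.51 ± 0.37, adjusted p = 0.0147). The Ccl20 groups overlapped, and against PBS replicates 1 to 3 alone the log2 fold change was 1.08 and did not pass. The 10 falls of the list became 7 against PBS replicates 1 to 3 alone and 1 against PBS replicates 4 to 6 alone.

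Antimicrobial proteins gave 7 falls and 1 rise among 21 tested, and 6 of the 21 had groups that did not overlap. Defb3, a beta-defensin of inflamed epithelium, stood at 9.31, 18.2 and 37.9 CPM with anti-IL-12p40, against 38.4, 75.3 and 218 CPM with PBS (-2.43 ± 0.50, adjusted p = 0.00602). Defb14, the mouse counterpart of human beta-defensin 3, stood at 12.1, 15.4 and 19.6 CPM with anti-IL-12p40, against 32.2, 39 and 46.4 CPM with PBS (-1.36 ± 0.28, adjusted p = 0.00556). Defb1 stood at 37.2, 58.9 and 84 CPM with anti-IL-12p40, against 106, 125 and 220.5 CPM with PBS (-1.19 ± 0.23, adjusted p = 0.00399). Each of these defensins was lower in every anti-IL-12p40 library than in any PBS library, while Defb6 was the member that rose (0.92 ± 0.23), a rise lost without PBS replicate 2 or 5 or anti-IL-12p40 replicate 1. Against PBS replicates 4 to 6 alone 1 member fell. S100a7a, the mouse psoriasin gene, fell by 2.38 on the log2 scale, with medians of 6.22 CPM with anti-IL-12p40 and 36.7 CPM with PBS.

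Genes listed as feedback regulators of NF-kB and STAT3 signalling, not all of which restrain it, gave 6 falls and 0 rises among 14 tested. Socs1, an inhibitor of JAK kinases, stood at 3.23, 4.55 and 6.42 CPM with anti-IL-12p40, against 7.87, 10.1 and 20.2 CPM with PBS (-1.25 ± 0.24, adjusted p = 0.00460). Zc3h12a, whose product degrades cytokine mRNA, stood at 79.9, 127 and 134 CPM with anti-IL-12p40, against 155, 187 and 379 CPM with PBS (-0.90 ± 0.19, adjusted p = 0.00689). Neither gene overlapped between the groups. Socs3, Nfkbia, Nfkbiz and Bcl3 fell by 0.95, 0.64, 0.60 and 0.74 on the log2 scale. The 6 falls became 2 without anti-IL-12p40 replicate 1, 2 or 6, 3 without PBS replicate 1 and 4 without any 1 of 4 other libraries, where Socs3 and Nfkbia were among the calls lost. Against PBS replicates 4 to 6 alone, 0 of the 6 passed, and 3 passed against PBS replicates 1 to 3 alone.

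Small proline-rich proteins cross-link into the cornified envelope of stressed epidermis. Of 36 tested small proline-rich and stress keratinocyte genes, 23 fell, 2 rose and 11 did not pass (median log2 fold change -1.04), and 22 of the 36 had groups that did not overlap. Sprr2b (Entrez gene ID 20756, chr3:92316705-92318085) stood at 39.3, 66.9 and 85.8 CPM with anti-IL-12p40, against 244, 348 and 816 CPM with PBS and 50.9 ± 37.9 CPM in water controls (mean ± SD, n = 3), with a log2 fold change of -2.67 ± 0.38, adjusted p = 0.000665. Sprr2i stood at 17.7, 45.8 and 98 CPM with anti-IL-12p40, against 324, 383 and 478 CPM with PBS (-2.84 ± 0.57, adjusted p = 0.00532). Sprr2k, a member of low level, stood at 0.50, 2.26 and 7.28 CPM with anti-IL-12p40, against 17.7, 21.7 and 34.7 CPM with PBS (-2.95 ± 0.61, adjusted p = 0.00602). These 3 genes, whose promoter windows are shown above, were lower in all 7 anti-IL-12p40 libraries than in any PBS library. The same held for Sprr2d (-1.84 ± 0.30), Sprr2e (-2.11 ± 0.36) and Sprr2f (-2.50 ± 0.51). Counts of these 6 Sprr2 genes were not whole in any of the 13 libraries, so reads are split among near-identical family members and the value of a single member is uncertain. The 2 members that rose were Sprr4 (1.74 ± 0.36) and Ivl, the involucrin gene (0.71 ± 0.19). Against PBS replicates 1 to 3 alone 16 members fell, and against PBS replicates 4 to 6 alone 4 did.

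Uox, Alox8, Cntn2 and Ptgs2 were among the 10 largest falls under the rule for named genes, which asks for a mean log2 CPM of at least 1. Uox, which encodes urate oxidase, stood at 11.7, 30.4 and 51.5 CPM with anti-IL-12p40, against 177, 255 and 545 CPM with PBS (-3.20 ± 0.53, adjusted p = 0.00195). Alox8, a lipoxygenase of arachidonic acid, stood at 10.1, 34.7 and 51.5 CPM with anti-IL-12p40, against 58.9, 140.1 and 547 CPM with PBS (-2.56 ± 0.49, adjusted p = 0.00405). Cntn2, a cell adhesion protein, stood at 0.80, 3.84 and 11 CPM with anti-IL-12p40, against 11.8, 22.3 and 36.2 CPM with PBS (-2.43 ± 0.58, adjusted p = 0.0127). None of the 3 overlapped between groups. Ptgs2, which encodes the inducible cyclooxygenase, stood at 0.752, 2.4 and 6.11 CPM with anti-IL-12p40, against 7.86, 16.2 and 47.4 CPM with PBS (-2.61 ± 0.65, adjusted p = 0.0167), without overlap, and lost its call without PBS replicate 5 (adjusted p = 0.0504). Pla2g4d, a phospholipase of psoriatic epidermis in humans, stood at 5.8, 15.2 and 31.3 CPM with anti-IL-12p40, against 59.8, 77.4 and 117 CPM with PBS (-2.19 ± 0.38, adjusted p = 0.00252). Tgfa, a ligand of the EGF receptor, stood at 61.4, 70.6 and 91.9 CPM with anti-IL-12p40, against 115, 151 and 218 CPM with PBS (-1.08 ± 0.20, adjusted p = 0.00351), and Hbegf, another such ligand, fell by 1.60 on the log2 scale (adjusted p = 0.0113). The matrix and wound repair list, which holds Hbegf, Ptgs2 and Plaur, gave 5 falls and 0 rises among 27 tested, and 3 falls without PBS replicate 5, 2 against PBS replicates 1 to 3 alone and 1 against PBS replicates 4 to 6 alone.

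Genes of normal cornification rose in part. Of 39 tested, 9 rose, 0 fell and 30 did not pass (median log2 fold change 0.59). Flg2 (Entrez gene ID 229574, chr3:93197273-93221377), a filaggrin-type protein of the granular layer, stood at 417, 630.0 and 919.8 CPM with anti-IL-12p40, against 25.3, 40.6 and 123 CPM with PBS and 1277 ± 783 CPM in water controls (mean ± SD, n = 3), with a log2 fold change of 3.68 ± 0.51, adjusted p = 0.000642. Krt77, a type II keratin, stood at 8.76, 26.3 and 152 CPM with anti-IL-12p40, against 0.848, 1.17 and 2.51 CPM with PBS (5.17 ± 1.0, adjusted p = 0.00424). Every anti-IL-12p40 library was above every PBS library for both, and the anti-IL-12p40 libraries of Krt77 ranged widely. Hrnr, which encodes hornerin, stood at 2021, 2969 and 3705 CPM with anti-IL-12p40, against 789, 1072 and 2541 CPM with PBS (1.20 ± 0.30, adjusted p = 0.0149), with overlap. Lor, the loricrin gene, rose by 1.08 on the log2 scale, and the late cornified envelope genes Lce1m, Lce1l, Lce1c and Lce1h by 1.49, 0.95, 0.81 and 0.78. The number of rises moved with single libraries, to 22 without PBS replicate 1, and to 4 without PBS replicate 2, 3 or 5 or anti-IL-12p40 replicate 1 or 2. It was 5 or 6 without any 1 of 5 other libraries, 1 against PBS replicates 1 to 3 alone and 4 against PBS replicates 4 to 6 alone. Of 27 tested ceramide and barrier lipid genes 2 rose and 1 fell. Elovl4, which makes very long acyl chains of ceramides, rose by 0.72 ± 0.18 on the log2 scale. Alox12e rose by 1.95 ± 0.57, a call lost without any 1 of 9 libraries, and Sptlc2 fell by 0.40, a call lost without anti-IL-12p40 replicate 1 or 2.

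Sebaceous and fatty acid enzymes rose in a larger share than any other list named here, 16 of 24 tested with 0 falls (median log2 fold change 1.28). Scd1, the stearoyl-CoA desaturase of sebocytes, stood at 1409, 2101 and 3437 CPM with anti-IL-12p40, against 448, 718 and 1399 CPM with PBS and 3479 ± 1173 CPM in water controls (mean ± SD, n = 3), with a log2 fold change of 1.58 ± 0.29, adjusted p = 0.00326. Dgat2l6, an acyltransferase, stood at 15.4, 22.2 and 33.6 CPM with anti-IL-12p40, against 2.38, 5.61 and 11.2 CPM with PBS (2.0 ± 0.37, adjusted p = 0.00326). Both genes were higher in every anti-IL-12p40 library than in any PBS library. Elovl3, a fatty acid elongase of sebaceous glands, stood at 122, 205 and 385 CPM with anti-IL-12p40, against 25.5, 43.2 and 142 CPM with PBS (2.07 ± 0.38, adjusted p = 0.00323), with overlap. The wax ester enzyme gene Awat1 (2.09 ± 0.39), the hydroxylase gene Fa2h (2.13 ± 0.42), the reductase gene Far2 (2.02 ± 0.41), the desaturase gene Scd3 (1.83 ± 0.36) and the elongase gene Elovl6 (1.62 ± 0.38) also rose. Olah, a thioesterase that ends fatty acid synthesis, stood at 3.59, 5.92 and 15.1 CPM with anti-IL-12p40, against 0.303, 0.418 and 1.49 CPM with PBS (3.41 ± 0.49, adjusted p = 0.000808). The summed level of the list was 4089, 5175 and 8282 CPM with anti-IL-12p40 and 2208, 2598 and 3810 CPM with PBS. Leaving out any 1 library left 14 to 18 rises. There were 13 against PBS replicates 1 to 3 alone and 1 against PBS replicates 4 to 6 alone. Krt79, a keratin of the follicle's sebaceous duct, stood at 1030.5, 1500.3 and 2101 CPM with anti-IL-12p40, against 355, 487 and 737 CPM with PBS (1.64 ± 0.24, adjusted p = 0.000934).

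**Figure D3:**
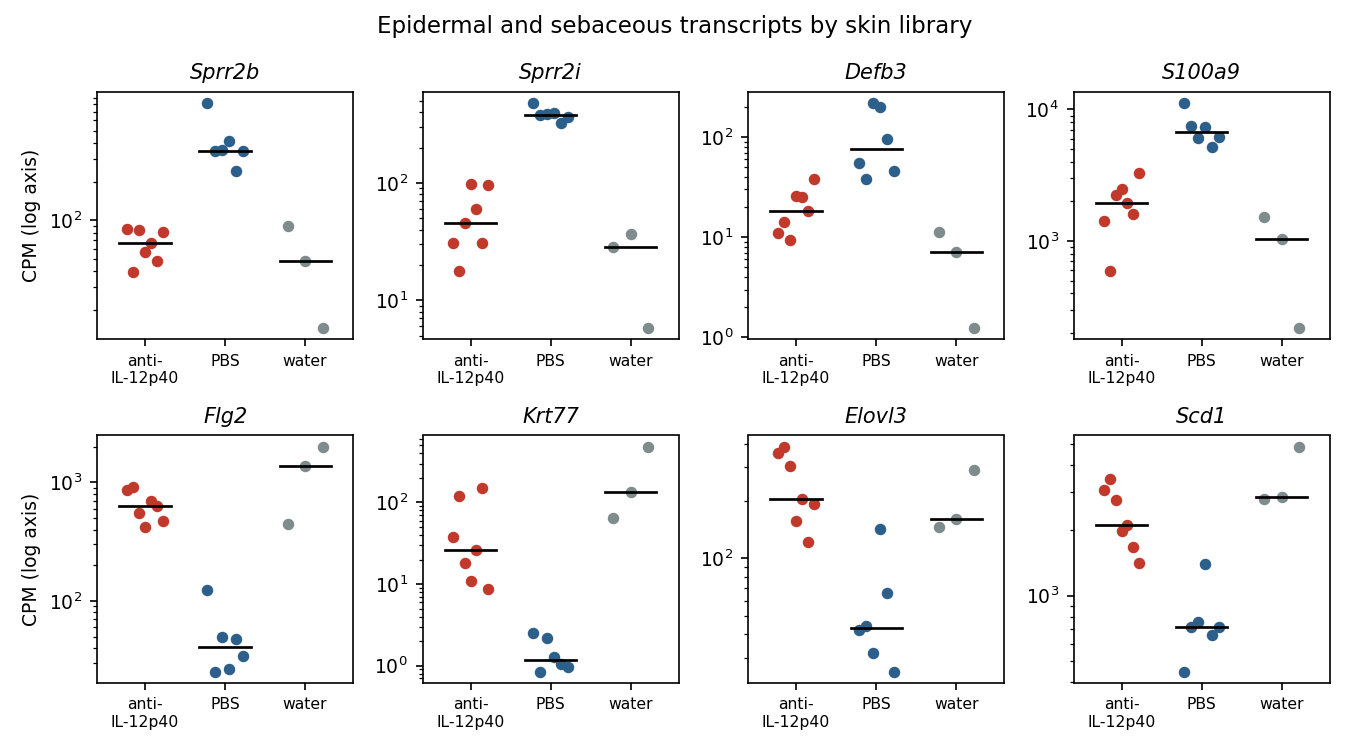
CPM per library on a log axis for 4 transcripts that fell and 4 that rose in skin with imiquimod and anti-IL-12p40 (7 libraries), imiquimod and PBS (6) and water and PBS (3). Points are libraries and bars are medians. Sprr2b, Sprr2i, Defb3 and S100a9 are lower, and Flg2, Krt77 and Scd1 higher, in every anti-IL-12p40 library than in any PBS library, and Elovl3 overlaps.

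Tight junction genes gave 6 rises and 0 falls among 16 tested. Cldn1, the main claudin of the epidermal barrier, stood at 158, 186 and 229 CPM with anti-IL-12p40, against 103, 119 and 187 CPM with PBS (0.58 ± 0.13, adjusted p = 0.0103). Cldn23 stood at 4.95, 7.28 and 11.1 CPM with anti-IL-12p40, against 1.4, 3.16 and 5.9 CPM with PBS (1.20 ± 0.26, adjusted p = 0.00730). Both overlapped in part. Cldn3, at low level, stood at 0.212, 0.652 and 1.9 CPM with anti-IL-12p40, against 0, 0.0552 and 0.14 CPM with PBS (3.74 ± 0.78, adjusted p = 0.00601), without overlap, and Cgn, the cingulin gene, rose by 0.93 ± 0.20 and Epcam by 0.73 ± 0.18 on the log2 scale. The 6 rises were 4 against PBS replicates 4 to 6 alone and 0 against PBS replicates 1 to 3 alone. The list of basal keratinocyte genes gave 2 rises among 12, Krt15 (1.47 ± 0.34, adjusted p = 0.0106) and Postn, which encodes the matrix protein periostin (0.81 ± 0.21, adjusted p = 0.0191). Postn is not particular to keratinocytes, and it stood at 270 to 803 CPM in the DSS colon libraries with anti-IL-12p40 or PBS. The call of Postn was lost without PBS replicate 5 (adjusted p = 0.0508).

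The 10 largest rises under the same rule, with its mean log2 CPM of at least 1, held 6 further genes outside these lists. Fcgbp, a mucin-like IgG Fc binding protein, stood at 37, 301 and 366 CPM with anti-IL-12p40, against 13.7, 35.1 and 44.4 CPM with PBS (3.0 ± 0.48, adjusted p = 0.00159). Only replicate 6 of the anti-IL-12p40 group, at the lowest value, lay within the PBS range. AAdacl4fm3, of the arylacetamide deacetylase family, stood at 16.5, 26.4 and 60 CPM with anti-IL-12p40, against 1.52, 3.1 and 8.6 CPM with PBS (2.92 ± 0.50, adjusted p = 0.00212). Cyp2j12, a cytochrome P450, stood at 2.44, 4.79 and 9.05 CPM with anti-IL-12p40, against 0.365, 0.61 and 1.87 CPM with PBS (2.67 ± 0.49, adjusted p = 0.00326). Neither overlapped. Panx3, a channel protein, rose by 2.42 ± 0.51, Hsd3b6, a steroid dehydrogenase, by 2.36 ± 0.51 and Serpina3j, a serine protease inhibitor, by 2.67 ± 0.64 on the log2 scale. Slc28a2b, a nucleoside transporter gene named here after its values were seen, had 262 counts over the 7 anti-IL-12p40 libraries and 0 over the 6 PBS libraries. With a floor of 3 counts set in place of the 0 of the PBS group, this is 69.1-fold higher with anti-IL-12p40. The lower limit of the 95% exact interval of the ratio, from the counts themselves, is 55.8 (counting error only, adjusted p = 0.0144 by edgeR). Slc28a2b stood at 1.1 ± 0.808 CPM in water controls (mean ± SD, n = 3).

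Regulatory T cell genes gave 6 rises and 1 fall among 15 tested (median log2 fold change 0.57). Foxp3, the transcription factor of these cells, stood at 2.21, 6.2 and 8.06 CPM with anti-IL-12p40, against 1.47, 1.73 and 2.34 CPM with PBS (1.59 ± 0.26, adjusted p = 0.00164). Ctla4, their inhibitory receptor, stood at 0.777, 3.25 and 5.21 CPM with anti-IL-12p40, against 0.787, 1.2 and 1.76 CPM with PBS (1.41 ± 0.31, adjusted p = 0.00724). The groups of both genes overlapped in part. Icos, Ikzf2, Gata3 and Tnfrsf18 rose by 0.61, 0.61, 0.54 and 0.51 on the log2 scale, and Areg, which encodes the EGF receptor ligand amphiregulin, was the 1 member that fell (by 1.38), a fall lost without any 1 of 9 libraries. The 6 rises became 4 without any 1 of 6 libraries, PBS replicates 2 and 3 and anti-IL-12p40 replicates 1, 2, 3 and 5. They were 2 against PBS replicates 1 to 3 alone and 1 against PBS replicates 4 to 6 alone. Of 23 tested T and NK cell markers, 8 rose and 0 fell (median log2 fold change 0.69). Cd2, an adhesion receptor of T and NK cells, stood at 2.21, 4.81 and 7.53 CPM with anti-IL-12p40, against 1.35, 2.04 and 2.31 CPM with PBS (1.43 ± 0.24, adjusted p = 0.00195). Cd3d and Cd3e, chains of the T cell receptor complex, rose by 0.73 and 0.89, and the kinase gene Lck by 0.69. These 8 rises became 3 without PBS replicate 5 or anti-IL-12p40 replicate 1 or 3, 4 without PBS replicate 1, 2 or 3 or anti-IL-12p40 replicate 5, and 5 without anti-IL-12p40 replicate 2. They were 2 against PBS replicates 1 to 3 alone and 1 against PBS replicates 4 to 6 alone. The summed T and NK cell markers were 174, 223 and 253 CPM with anti-IL-12p40 and 99.2, 151 and 192 CPM with PBS.

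Of 21 tested dendritic and Langerhans cell markers 6 rose and 1 fell. Flt3, the growth factor receptor of dendritic cells, stood at 2.69, 3.91 and 5.05 CPM with anti-IL-12p40, against 1.34, 1.45 and 2.91 CPM with PBS (1.17 ± 0.23, adjusted p = 0.00477). Clec9a, a marker of cross-presenting dendritic cells like Xcr1 (which rose by 1.13 ± 0.31), had 38 counts over the anti-IL-12p40 libraries and 2 over the PBS libraries, a ratio of 15 scaled to depth (95% exact interval 3.89 to 129). The integrin genes Itgae and Itgax rose by 1.02 ± 0.22 and 0.88 ± 0.22, and Epcam, counted above with the tight junction genes, is the sixth. The fall was that of Cd24a (-0.60 ± 0.17), lost without PBS replicate 1 or anti-IL-12p40 replicate 1, 2 or 6. The 6 rises were 4 without anti-IL-12p40 replicate 1 or 2, 0 against PBS replicates 1 to 3 alone and 2 against PBS replicates 4 to 6 alone. Among 21 monocyte and T cell chemokines 5 rose and 1 fell. Ccl17, a ligand of CCR4 made by dendritic cells, stood at 0.239, 1.56 and 2.95 CPM with anti-IL-12p40, against 0.183, 0.327 and 0.475 CPM with PBS (2.42 ± 0.54, adjusted p = 0.00897). Ccl22, the other ligand of CCR4, stood at 3.75, 7.77 and 15.4 CPM with anti-IL-12p40, against 1.75, 3.86 and 5.22 CPM with PBS (1.21 ± 0.29, adjusted p = 0.0128). The groups overlapped for both. Cxcl14 and Ccl27a, made by keratinocytes, rose by 0.91 and 0.73, and Ccl3 fell by 2.21. The call of Cxcl14 was lost without PBS replicate 1 or 6 or anti-IL-12p40 replicate 2 or 6. The fall of Ccl3 was lost without PBS replicate 5 or anti-IL-12p40 replicate 1, 2 or 3. The 5 rises became 3 without PBS replicate 6 or anti-IL-12p40 replicate 2, 0 against PBS replicates 1 to 3 alone and 1 against PBS replicates 4 to 6 alone.

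Of 20 tested neutrophil markers 3 fell, 1 rose and 16 did not pass (median log2 fold change -0.50), and the neutrophil-restricted genes Ly6g, Mpo and Elane were below the filter. The 3 that fell were S100a8, S100a9 and Trem1, a myeloid receptor that lost its call without any 1 of 8 libraries (adjusted p of 0.0504 to 0.109). The count of 3 was 2 without any 1 of 8 libraries and 4 without anti-IL-12p40 replicate 6. The list's summed level was 1267, 3789 and 5561 CPM with anti-IL-12p40, against 8597, 11123 and 16859 CPM with PBS, and S100a8 and S100a9 made up most of it. Whether neutrophils or keratinocytes carried the difference was not tested. Of 22 monocyte and macrophage markers 0 rose and 1 fell, the endotoxin co-receptor gene Cd14 (-1.09 ± 0.31, adjusted p = 0.0347), a call lost without any 1 of 6 libraries. By edgeR no gene passed in the type I interferon-stimulated (24 tested), cell cycle (25), collagen (18), B cell (9), endothelial (13), adipocyte (12), skeletal muscle (14), smooth muscle (8) and tissue dissociation (12) lists. Of their 135 tested genes 15 had an unadjusted p under 0.05, 3 passed in DESeq2 and 7 in limma-voom. Over all 15345 tested genes these counts were 3871, 1845 and 2677, which are larger shares.

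Hair follicle genes gave 5 rises and 1 fall among 17 tested (median log2 fold change 3.0). The fall, of Foxn1, was lost without any 1 of 9 libraries. The 5 rises became 1 without anti-IL-12p40 replicate 2 or PBS replicate 1, 2, 3, 5 or 6, 2 without PBS replicate 4 and 8 without anti-IL-12p40 replicate 7. There was 1 rise with limma-voom, and 10 with the DESeq2 Wald test. Krt73, a keratin of the inner root sheath, and Krt35, a keratin of the hair cortex, stood at 63.2 and 28.6 CPM in anti-IL-12p40 replicate 2. Their log2 fold changes were 4.36 and 4.87 with that library, and 1.58 (adjusted p = 0.262) and 2.12 (adjusted p = 0.263) without it. The summed level of the list was 1170, 1623 and 4610 CPM with anti-IL-12p40 and 484, 634 and 903 CPM with PBS, higher with the antibody like that of the sebaceous list. The part of hair follicle content in the sebaceous rises was not tested. The sebaceous list gave 14 rises without replicate 2, against 16 with it. That omission cannot separate the 2 lists, because the hair follicle sum of every anti-IL-12p40 library was above the highest PBS sum.

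**Figure D4:**
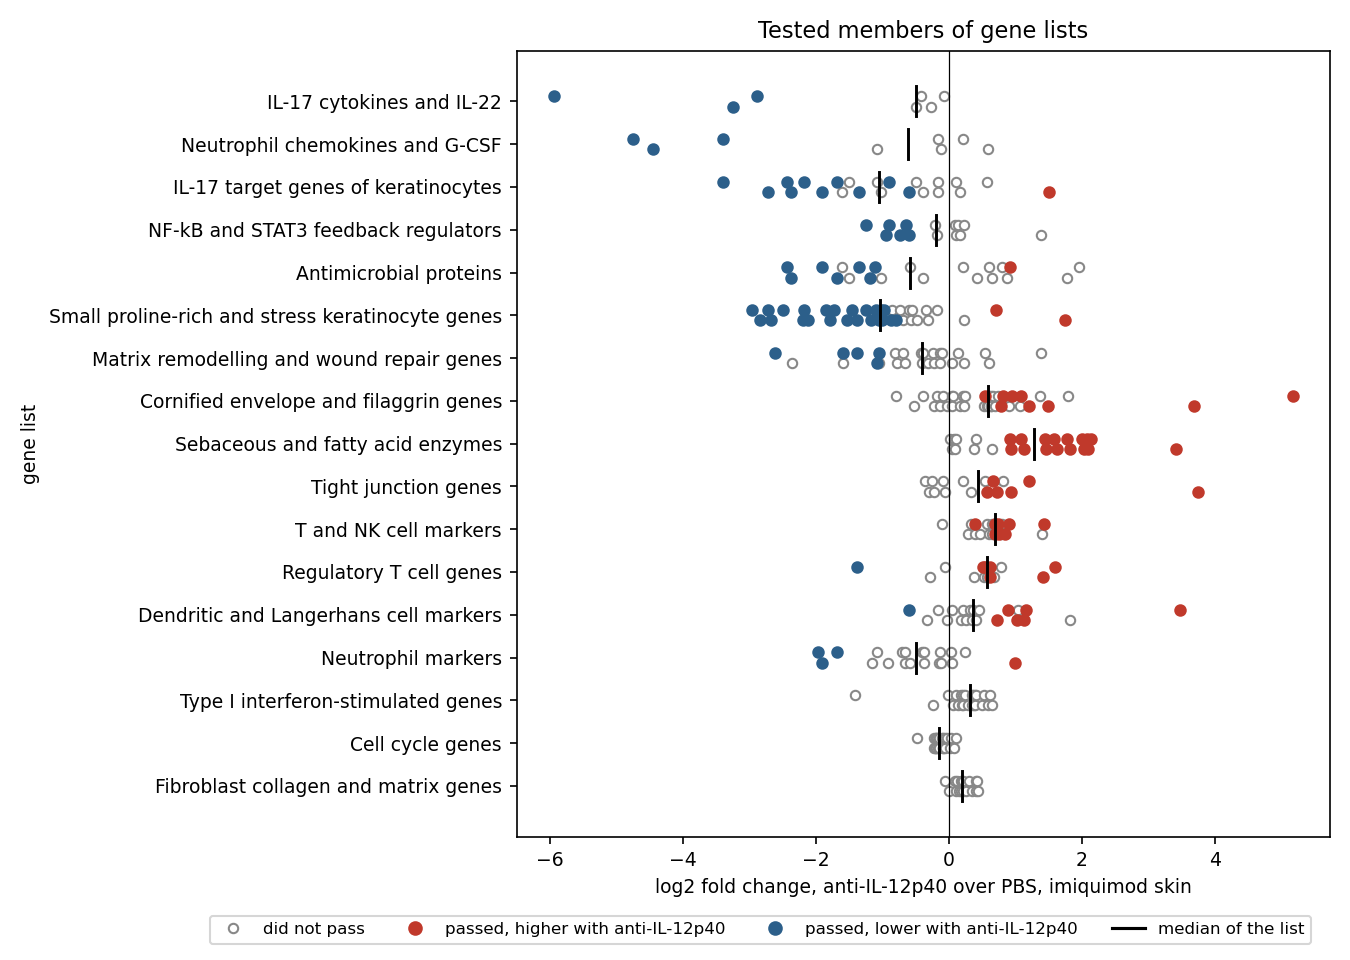
Log2 fold change of anti-IL-12p40 over PBS (x axis) for the tested members of 17 gene lists (rows). Filled points passed (red higher, blue lower with anti-IL-12p40), open points did not, and black bars are list medians, from -1.05 for IL-17 target genes to 1.28 for sebaceous enzymes.

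Against water controls, the same fit placed both groups. In anti-IL-12p40 skin 729 of 15345 genes (4.75%) passed against water, 2.4% higher and 2.35% lower, and in PBS skin 5046 (32.9%), 15.5% higher and 17.4% lower. Both comparisons share the 3 water libraries. Cxcl2 had a log2 fold change of 2.22 ± 1.69, adjusted p = 0.442 for anti-IL-12p40 over water and of 6.66 ± 1.62, adjusted p = 0.00421 for PBS over water. For Il17f the values were 0.19 ± 0.68, adjusted p = 0.894 for anti-IL-12p40 and 3.45 ± 0.66, adjusted p = 0.000887 for PBS. For Sprr2b they were 0.37 ± 0.46, adjusted p = 0.663 for anti-IL-12p40 and 3.04 ± 0.54, adjusted p = 0.000577 for PBS. The 3 genes passed against water with PBS and did not pass with anti-IL-12p40. Flg2 gave -0.97 ± 0.53, adjusted p = 0.275 for anti-IL-12p40 and -4.65 ± 0.57, adjusted p = 4.91e-05 for PBS, and Scd1 gave -0.57 ± 0.34, adjusted p = 0.317 for anti-IL-12p40 and -2.15 ± 0.34, adjusted p = 0.000265 for PBS. Krt6a, a keratin of activated epidermis, still passed against water with the antibody (1.69 ± 0.48, adjusted p = 0.0451), at 3942, 8272 and 13793 CPM with anti-IL-12p40 and 11140.4, 13460.3 and 15933 CPM with PBS, and did not pass between them (-0.73 ± 0.35, adjusted p = 0.195). A p that misses the threshold does not show that the anti-IL-12p40 group equals water.

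Set against anti-IL-36R, the other antibody, 7 of 15345 genes (0.0456%) passed with anti-IL-12p40, 5 higher (0.0326%) and 2 lower (0.013%). An unadjusted p under 0.05 was found for 806 genes, against 3871 in the comparison with PBS. The 806 are near the share that this threshold alone gives when nothing differs. Il17f was lower with anti-IL-12p40, at 0.283, 0.418 and 1.02 CPM with anti-IL-12p40, against 1.21, 2.15 and 9.02 CPM with anti-IL-36R (log2 fold change -2.65 ± 0.45, adjusted p = 0.0182). The ranges did not overlap, but the call was lost without any 1 of 6 anti-IL-12p40 libraries (adjusted p of 0.0541 to 0.0820). 5830411N06Rik, a scavenger receptor gene that is also named Scart2 and marks gamma-delta T cells in mice, stood at 4.2, 4.72 and 5.52 CPM with anti-IL-12p40, against 6.43, 10.2 and 11.9 CPM with anti-IL-36R (-0.97 ± 0.15, adjusted p = 0.00501). Against PBS it did not pass (-0.23 ± 0.15, adjusted p = 0.373). Krt13, a keratin of moist epithelia, was higher with anti-IL-12p40 at 0.948, 1.02 and 1.84 CPM with anti-IL-12p40, against 0.119, 0.191 and 0.456 CPM with anti-IL-36R (2.16 ± 0.40, adjusted p = 0.0419), and lost that call without any 1 of 12 libraries. Gm5779, a transcribed pseudogene (1.38 ± 0.24, adjusted p = 0.0282), and Gcn1 (0.43 ± 0.072, adjusted p = 0.0182), a regulator of translation, lost theirs without any 1 of 10 and 8 libraries. Leaving out single libraries gave 3 to 8 genes, with the lowest count without anti-IL-12p40 replicate 1, 4 or 7.

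Igf2bp3 and 4930463O16Rik made up the rest of the 7, and they set the anti-IL-12p40 libraries apart from all other skin libraries. Igf2bp3 (Entrez gene ID 140488, chr6:49085218-49215469), an RNA-binding protein of fetal and tumour tissue, stood at 40.2, 54.4 and 76.2 CPM with anti-IL-12p40, against 0.446, 0.782 and 1.37 CPM with anti-IL-36R, 0.303, 0.659 and 1.92 CPM with PBS and 0.327, 0.529 and 1.46 CPM in water controls. The log2 fold change was 5.88 ± 0.32, adjusted p = 9.79e-11 over PBS and 6.12 ± 0.30, adjusted p = 1.53e-11 over anti-IL-36R. No anti-IL-12p40 library overlapped any other skin library. Counts of Igf2bp3 were not whole in any of the 13 anti-IL-12p40 and PBS libraries, so some of its reads are shared with other genes. Counts of its relatives Igf2bp2 and Igf2bp1 were not whole in only 1 of the 13 each, and which genes share the reads was not tested. 4930463O16Rik (Entrez gene ID 75804, chr10:84488293-84497676), a long noncoding RNA, stood at 5.15, 14.9 and 21.8 CPM with anti-IL-12p40, against 0.119, 0.324 and 0.399 CPM with anti-IL-36R, 0.052, 0.275 and 0.468 CPM with PBS and 0.113, 0.218 and 0.265 CPM in water controls (over PBS 5.73 ± 0.35, adjusted p = 5.41e-10). The nearest tested neighbours of Igf2bp3, which are Gpnmb, Malsu1 (overlapping it), Tra2a and Ccdc126, did not pass, with log2 fold changes of -0.22, -0.27, 0.057 and 0.13. Genes below the filter were not looked at as neighbours. Of the nearest tested neighbours of 4930463O16Rik, Nuak1 rose by 0.50 and Ckap4 fell by 0.47 on the log2 scale. In colon, anti-IL-12p40 over PBS gave -0.071 ± 0.28, adjusted p = 0.940 for Igf2bp3. The sample numbers in the labels run together for the 7 anti-IL-12p40 skin libraries and stand apart from those of every other skin group, so the antibody and any other property shared by those libraries cannot be told apart.

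**Figure D5:**
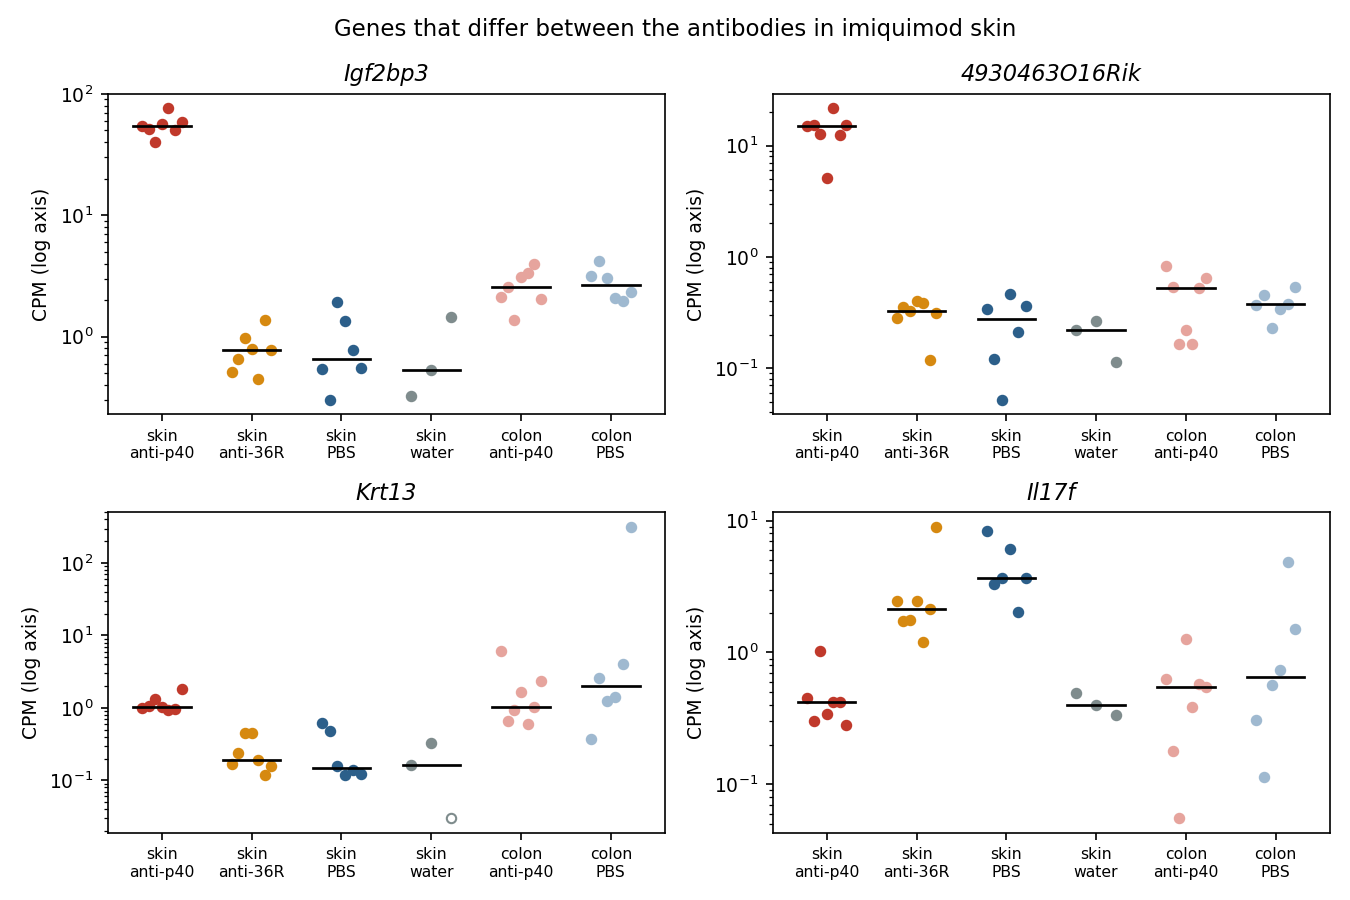
CPM per library on a log axis for 4 genes that passed between anti-IL-12p40 and anti-IL-36R in imiquimod skin, in skin with anti-IL-12p40 (7 libraries), anti-IL-36R (7), PBS (6) and water (3) and in DSS colon with anti-IL-12p40 (7) and PBS (6). Points are libraries, bars are medians, and open points are libraries below 0.03 CPM drawn at that value. Igf2bp3 is at 40.2 CPM or more in each anti-IL-12p40 skin library and at 1.92 CPM or less in the PBS skin libraries.

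The effect of anti-IL-12p40 in skin was tested against its effect in DSS colon as an interaction over 16818 genes, of which 309 (1.84%) passed, 244 with the higher log2 fold change in skin and 65 with the lower. In that fit 636 genes (3.78%) passed in colon itself, 0.63% higher and 3.15% lower with anti-IL-12p40 than with PBS. Sprr2b fell in skin and had 0.52 ± 0.38, adjusted p = 0.541 in colon, an interaction of -3.20 ± 0.47, adjusted p = 0.000106, and Sprr2k had an interaction of -3.28 ± 0.78, adjusted p = 0.0165. In these colon libraries Sprr2b stood at only 0.747 to 2.58 CPM and Sprr2k at 0.107 to 1.31 CPM, far below their levels in PBS skin. Whether these low colon levels account for the interactions was not tested. Il22 stood at 0.0553, 0.541 and 3.52 CPM with anti-IL-12p40 and 0.0564, 0.56 and 1.68 CPM with PBS in colon (0.48 ± 0.75, adjusted p = 0.812), and its interaction was -6.46 ± 1.41, adjusted p = 0.0110. Foxp3, which rose in skin, had -0.52 ± 0.30, adjusted p = 0.414 in colon and an interaction of 2.09 ± 0.44, adjusted p = 0.00805. Spdef, an epithelial transcription factor that fell in skin, at 0, 0.158 and 0.802 CPM with anti-IL-12p40 and 1.54, 3.44 and 10.8 CPM with PBS, had an interaction of -4.12 ± 0.86, adjusted p = 0.00779. For the chemokine Cxcl2 the interaction did not pass (-1.06 ± 1.16, adjusted p = 0.753), and the colon effect was -3.40 ± 0.84, adjusted p = 0.0121. Colon PBS replicate 6 held squamous transcripts, with Krt5 at 1409 CPM against a median of 0.682 CPM over the 6 colon PBS libraries, and without it 133 genes passed. The positive interactions of Krt5, Krt6a, Sprr2d and Calml3 rested on that library: without it Krt5 had 0.81 (adjusted p = 0.736) and Krt6a 0.96 (adjusted p = 0.826). Ltf, the lactoferrin gene, lost its interaction without that library or without anti-IL-12p40 skin replicate 6.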

How the data were processed

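Messenger RNA was selected with Dynabeads and made into strand-specific ScriptSeq libraries, per the labels' protocols. The authors estimated expected counts per gene with RSEM on mm10, per the submitters' processing notes, and deposited 1 table of expected counts per tissue, with 23 skin and 26 colon libraries and 24475 gene IDs, of which 24375 matched a symbol. Of the skin values 16.9% were not whole. Totals were 14.7 to 19.7 M in the 13 compared libraries, and intervals cover counting error only.

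Expected counts were rounded and tested in edgeR 4.0.16 (R 4.3.3) with filterByExpr, TMM factors and robust quasi-likelihood F tests, all 4 skin groups in 1 fit. The interaction with tissue was fitted over all 8 groups. The p-values were adjusted by the Benjamini-Hochberg method over all tested genes. The SE after ± was computed from the log2 fold change and its F statistic. CPM are scaled to TMM-adjusted totals. TMM factors were 0.833 in PBS replicate 1 and 0.922 to 1.06 in the other 12. The common biological coefficient of variation was 0.201. The method was tested on simulated data.

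Named genes are a fixed cytokine set, the 10 largest rises and falls whose log2 fold change is 1 or more in size and whose log2 CPM averages 1 or more, 4 members per list with the smallest p, and 5 each way for the further comparisons. The largest changes leave out pseudogenes and genes that are predicted, clone-named or sex-linked, and other genes named were chosen after their values were seen. Some genes that this rule names are not reported here. The members and 41 gene lists were chosen with earlier results of these data known. Alternatives were DESeq2 1.42.0 size factors, no filter, the DESeq2 Wald test, limma 3.58.1 voom with sample weights, a fit of only the compared groups, the omission of each library, a minimum fold change, and PBS replicates 1 to 3 (numbered with the water controls) or 4 to 6 (numbered with anti-IL-36R) alone.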

Additional observations from a re-analysis of the deposited data

Results flagged for a closer look

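Single libraries stood far from the rest of their group in 4 of 68 sets of a gene and a group (34 genes), and chance flags about 1 in 20 such sets. Il17f was at 1.02 CPM in anti-IL-12p40 replicate 3, and the nearest library was at 0.451 CPM. Il1f9 was at 1.36 CPM in anti-IL-12p40 replicate 4, and the nearest library was at 2.47 CPM. Sprr2f was at 329 CPM in PBS replicate 1, with the nearest at 248 CPM, and Il1rl2 at 29.1 CPM in the same library, with the nearest at 21.2 CPM.

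The effect of anti-IL-12p40 over PBS differed between imiquimod skin and DSS colon by the interaction test for 4 of the 34 genes. As log2 fold change in skin minus that in colon, Igf2bp3 had 5.95 ± 0.43, adjusted p = 1.64e-13, Il22 -6.46 ± 1.41, adjusted p = 0.0110, Sprr2b -3.20 ± 0.47, adjusted p = 0.000106 and Sprr2k -3.28 ± 0.78, adjusted p = 0.0165. Igf2bp3 was higher in 7 of 7 anti-IL-12p40 skin libraries than in any PBS skin library, and the other genes were lower in 7 of 7. The Sprr2b interaction did not pass in limma-voom. In colon Sprr2b reached at most 2.58 CPM and Sprr2k at most 1.31 CPM, and whether these low levels account for the interactions was not tested.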

How the results depend on the processing

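The count of genes passing against PBS was 2677 with limma-voom (1552 higher, 1125 lower), 429 against PBS replicates 1 to 3 alone (189 higher, 240 lower), 193 against PBS replicates 4 to 6 alone (150 higher, 43 lower) and 409 with a minimum log2 fold change of 1. It was 737 to 1799 when each library was left out, and 1077 to 1845 in the other alternatives. Against anti-IL-36R, 22 genes passed with the DESeq2 Wald test, 4 with the compared groups alone and 3 to 8 without single libraries, with 3 or 4 without anti-IL-12p40 replicate 1, 4, 6 or 7 or anti-IL-36R replicate 2, 5 or 6. The interaction with colon counted 489 genes with the DESeq2 Wald test, 162 with limma-voom, 114 with the compared groups alone and 133 to 461 without single libraries, the lowest being 133 without colon PBS replicate 6 and 205 without PBS replicate 2. Of 103 named genes that passed against PBS, 17 passed under every alternative that could be fitted and 86 lost the call under at least 1, and 0 reversed. The 2 alternatives with the most losses kept 3 PBS libraries of 6: 73 of 103 calls were lost against PBS replicates 4 to 6 and 55 of 102 against PBS replicates 1 to 3, and 0 to 21 in each other alternative. Interactions reversed for Calml3 without colon PBS replicate 6 (-1.85, with 8.46 as the highest value when other libraries were left out), and with limma-voom for Krt5 (-0.047), Krt6a (-0.66) and Sprr2d (-0.44). The cause was not tested. With the compared groups alone 98 of the 103 were tested, and Il17a, Il22, Csf3, Cldn3 and Krt35 were below the filter. Il17a was also below it against PBS replicates 1 to 3 alone. No paired analysis was possible because replicate numbers were given in accession order and pair no samples. The anti-IL-12p40 libraries share a run of sample numbers of their own, so antibody and run cannot be told apart, and genes under about 1 CPM rest on few counts.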

Other observations

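Padi4, which encodes the peptidylarginine deiminase of neutrophil nuclei, was the 1 tested neutrophil marker that rose, at 11.7, 14.6 and 19.5 CPM with anti-IL-12p40, against 5.61, 8.06 and 10.4 CPM with PBS (log2 fold change 0.99 ± 0.19, adjusted p = 0.00391). The groups did not overlap, while S100a8, S100a9 and Trem1 of the same list fell. Il7, a growth factor of lymphocytes made by keratinocytes, stood at 1.63, 2.17 and 2.42 CPM with anti-IL-12p40, against 0.606, 0.766 and 1.7 CPM with PBS (1.17 ± 0.25, adjusted p = 0.00636). Il20ra, a receptor chain for IL-19, IL-20 and IL-24, rose by 1.16 ± 0.30 on the log2 scale while the ligand genes Il19 and Il24 fell, and its call was lost without PBS replicate 3 or 5 or anti-IL-12p40 replicate 3 (adjusted p of 0.0522 to 0.0548). Arntl, the core clock gene also named Bmal1, was the 1 of 16 tested circadian clock genes that passed (0.53 ± 0.12, adjusted p = 0.00877). The ribosomal protein genes Rplp0 (-0.50 ± 0.098) and Rps2 (-0.35 ± 0.093) fell, 2 of 12 tested, and both lost the call under at least 1 alternative, while 8 of 12 fell without anti-IL-12p40 replicate 7.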
